A study of Mus musculus with 7 samples.

Results

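The 4 stretches of the mouse genome described here are among the megabase windows with most peaks in the series, and hold the highest numbers of 3T3 CTCF peaks. Their members are all peaks of the 4 deposited peak lists whose centre lies in chr10:79000001-81000000, chr19:5000001-6000000, chr15:76000001-77000000 or chr17:56000001-57000000 (mm9). These 5 megabases held 1513 of the 100560 peaks of the series. Of the 1513, 766 were CTCF peaks and 375 CTCFL peaks of 3T3 cells, and 277 were CTCF peaks and 95 CTCFL peaks of P19 cells.

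The peaks come from chromatin immunoprecipitation and sequencing, with antibody N2.2 against CTCF and antibody S6 against CTCFL. The 3T3 lists are from NIH3T3 fibroblasts and the P19 lists from p19 embryonal carcinoma cells, both labelled as stably carrying pBI-EGFP-FLAG-mCtcfl, a plasmid with tagged mouse Ctcfl, and pTA-N. All 4 groups share the label of growth in 2 µg/ml doxycycline with induction by 48 h without it, while the P19 titles call those cells controls, which leaves the induction of CTCFL in P19 unclear. Of the 7 samples in the series, the P19 input and those from 3T3 cells lacking the plasmid are not used here. Each group is 1 library, so no difference has a replicate check and no test was made. The 95% intervals in parentheses, exact by Clopper-Pearson for shares, take neighbouring peaks as independent and show counting error alone.

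CTCF is a zinc-finger protein that stops cohesin during loop extrusion, and its sites lie at the borders of chromatin domains and near many promoters. CTCFL, also called BORIS, is its paralogue of the male germ line. It has a nearly identical zinc-finger region but different ends, and in cells that are made to express it, it is known to occupy part of the CTCF sites and also open promoters without CTCF. CTCF sites are known to be unevenly spread along chromosomes and to be frequent in gene-rich stretches.

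The windows were chosen by their peak numbers, above all those of 3T3 CTCF. The 5 megabases were ranks 1 to 5 of 2475 for 3T3 CTCF, with 186 and 184 peaks in the chromosome 10 megabases, 136 on chromosome 19, 132 on chromosome 17 and 128 on chromosome 15. The next one, chr15:78000001-79000000, had 126 and lies outside. By the sum of the 4 lists they were ranks 1, 2, 3, 4 and 9, the last being chromosome 17 with 236 peaks. For 3T3 CTCFL the same megabases were ranks 1, 2, 3, 4 and 8. In P19 the chromosome 17 megabase was only rank 112 for CTCF and rank 158 for CTCFL, with 38 and 8 peaks. All values of peak number and density below are therefore a description of the choice.

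Every list was several times denser in the windows than in the rest of chromosomes 10, 15, 17 and 19. There were 153.2 against 20.9 peaks per Mb for 3T3 CTCF (7.33-fold) and 75 against 8.41 per Mb for 3T3 CTCFL (8.92-fold). For P19 CTCF there were 55.4 against 13.4 per Mb (4.14-fold), and for P19 CTCFL 19 against 2.69 per Mb (7.06-fold). The windows thus held 8.69% of the 3T3 CTCF peaks of these chromosomes but 5.10% of the P19 CTCF peaks, on 1.28% of their length. CTCF peaks covered 6.77% of the window bases in 3T3 and 4.01% in P19, against 0.864% and 0.881% of the rest.

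**Figure D1:**
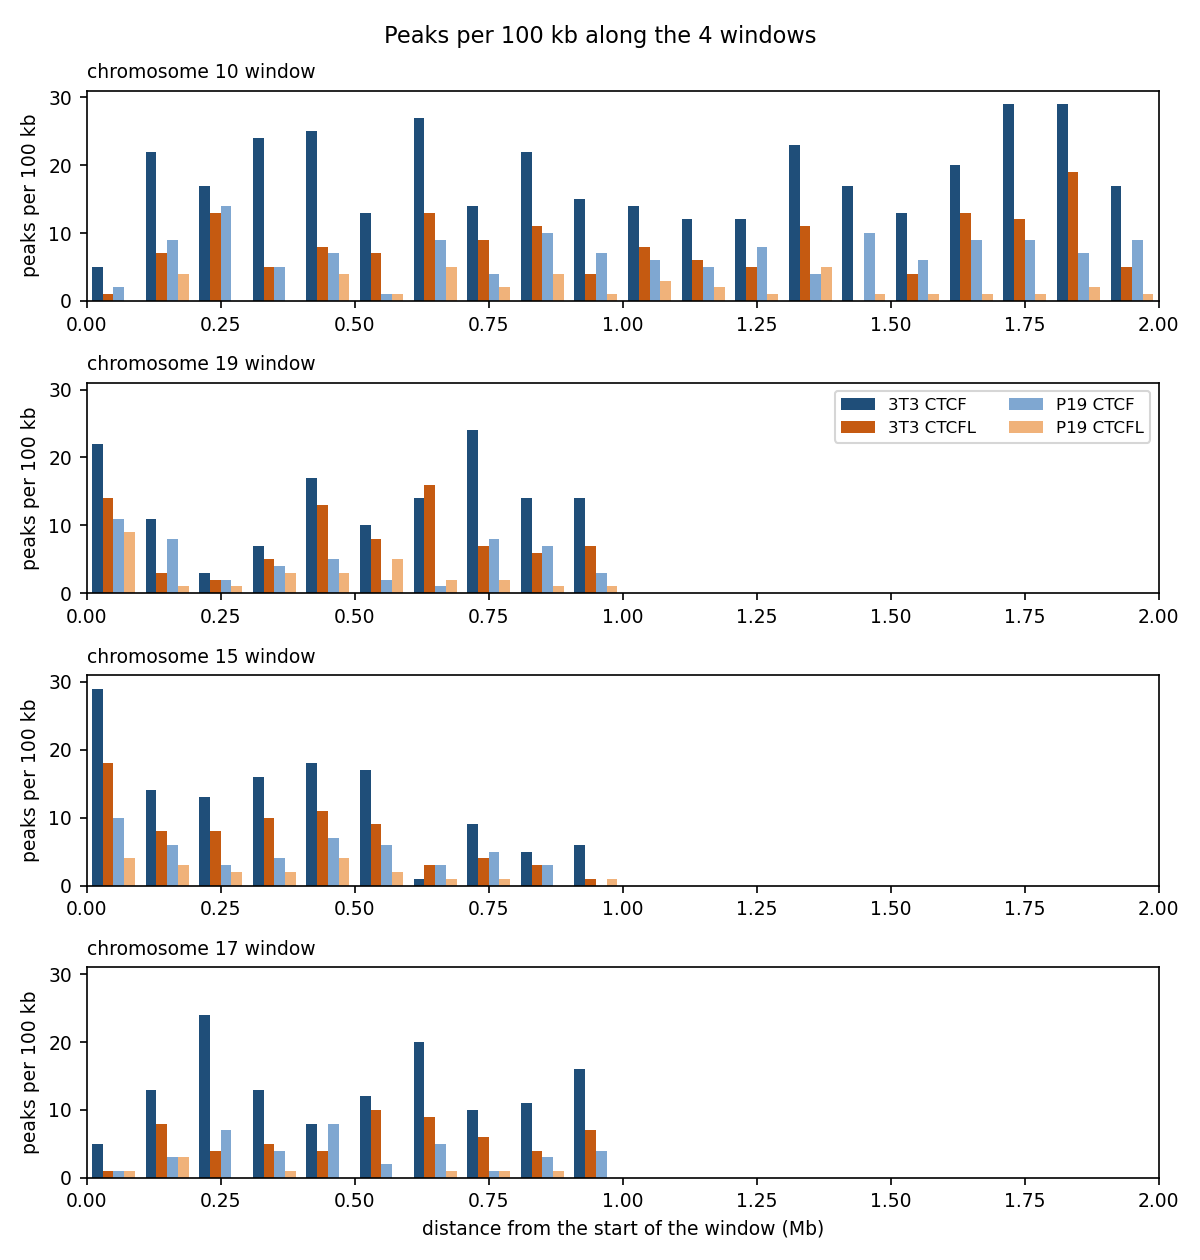
Peaks per 100 kb (bars, 1 per list) against the distance from the start of each window in Mb; the chromosome 10 window is 2 Mb long and the others 1 Mb. The tallest 3T3 CTCF bars reach 29 peaks, and the chromosome 10 window has a bin with 17 3T3 CTCF peaks and no 3T3 CTCFL peak.

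The density was not even within a window. The fullest 100 kb bins of 3T3 CTCF were chr10:80700001-80800000 and chr10:80800001-80900000 and chr15:76000001-76100000, with 29 peaks each. The chromosome 15 bin was also the fullest of its window for 3T3 CTCFL, with 18 peaks, and for P19 CTCF, with 10. Its 4 P19 CTCFL peaks were matched by chr15:76400001-76500000. On chromosome 19 the first bin, chr19:5000001-5100000, led both P19 lists with 11 CTCF and 9 CTCFL peaks, and held 22 CTCF and 14 CTCFL peaks of 3T3. The sparsest 3T3 CTCF bin was chr15:76600001-76700000, with 1 peak, in the window whose first bin had 29.

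The 2 factors did not fill the bins alike. The bin chr10:80400001-80500000 held 17 3T3 CTCF and 10 P19 CTCF peaks, but 0 3T3 CTCFL peaks and 1 P19 CTCFL peak. It was the only one of 50 bins without 3T3 CTCFL, whereas P19 CTCFL was missing from 8. In the opposite direction, chr19:5600001-5700000 held 16 CTCFL peaks and 14 CTCF peaks in 3T3, and 2 CTCFL peaks and 1 CTCF peak in P19. More CTCFL than CTCF peaks were found in 2 bins in 3T3 and in 4 bins in P19. Across the 50 bins, Spearman's rho of peak numbers was 0.66 for 3T3 CTCF with 3T3 CTCFL and 0.66 for 3T3 CTCF with P19 CTCF. It was 0.55 for CTCFL of the 2 lines and 0.20 for P19 CTCF with P19 CTCFL. These describe bins that share the regional density, and the P19 CTCFL bins hold few peaks.

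Neighbouring 3T3 CTCF peaks lay a few kb apart in the windows. The median distance between neighbouring centres was 3.87 kb (quartiles 1.64 and 8.33 kb) against 11.2 kb in the rest, taken 1 Mb at a time. For 3T3 CTCFL it was 6.76 kb against 21.0 kb, for P19 CTCF 10.6 kb against 25.1 kb, and for P19 CTCFL 31.1 kb against 59.8 kb. The next centre was within 10 kb for 79.4%, 58.2%, 49.5% and 26.4% of distances in the same order, against 47.2%, 35.3%, 28.4% and 16.7% in the rest. Denser stretches have closer neighbours by construction, so these distances follow from the choice of the windows.

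Divided by the mean distance of its window, the median distance was 0.63 for 3T3 CTCF (95% binomial interval of the median 0.58 to 0.69), a quantity scaled for density. Uniform placement gives 0.69 where a window has many distances and a higher value where it has few. Lower values mean more clumping. The value was 0.56 for 3T3 CTCFL (0.46 to 0.69), 0.65 for P19 CTCF (0.55 to 0.81) and 0.63 for P19 CTCFL (0.44 to 0.79). In the rest, with windows of at least 4 distances, it was 0.54 for 3T3 CTCF (0.52 to 0.56), 0.56 for 3T3 CTCFL, 0.61 for P19 CTCF and 0.62 for P19 CTCFL. The rest includes windows with few distances, so the value of uniform placement is not the same there as in the dense windows. The 3T3 CTCF value was thus higher in the windows than in the rest, and for the other lists the intervals overlap. The windows were chosen by the peak numbers of this same list, so its evenness and the choice cannot be told apart. By window, 3T3 CTCF was most clumped on chromosome 15 (0.48) and least on chromosome 10 (0.68), with 0.59 on chromosome 19 and 0.65 on chromosome 17. Without the chromosome 10 window the pooled value was 0.57 (0.49 to 0.67), whose interval overlaps that of the rest. With peaks under 500 bp apart merged, the window value was 0.68 (0.61 to 0.75) for 3T3 CTCF and 0.66 (0.51 to 0.80) for 3T3 CTCFL. Both of these intervals include the 0.69 of uniform placement, and the rest was not merged for this value.

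**Figure D2:**
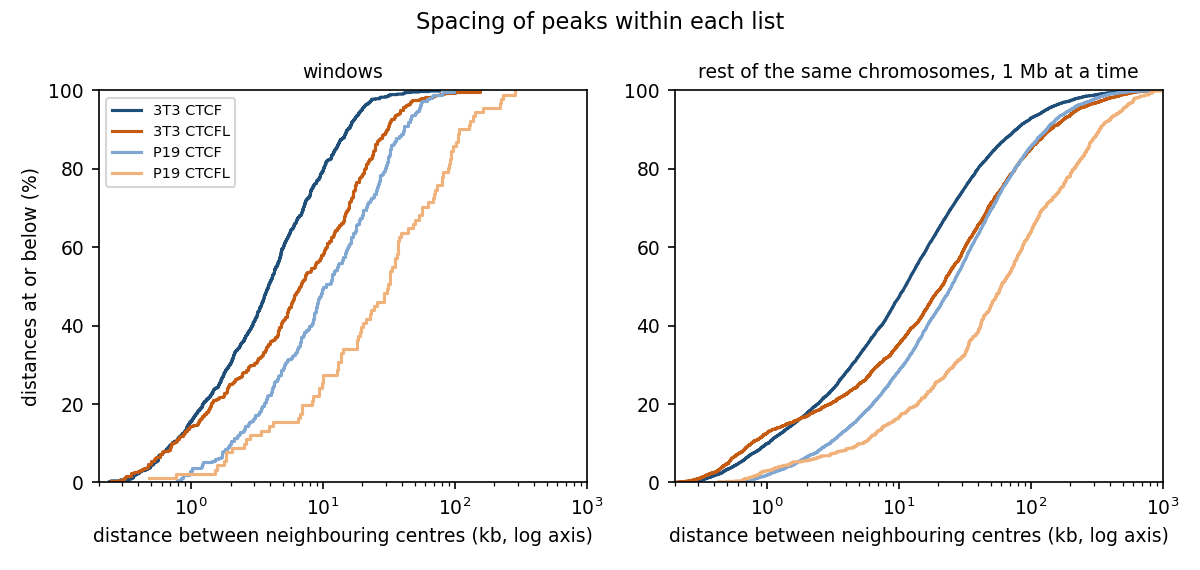
Cumulative share of distances (%) against the distance between neighbouring peak centres of 1 list (kb, log axis), in the windows and in the rest of the same chromosomes. The 3T3 CTCF line reaches 79.4% at 10 kb in the windows and 47.2% in the rest.

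Some neighbours nearly touched. The next peak began under 200 bp after the end of the last for 8.53% of 3T3 CTCF distances in the windows and 5.61% in the rest. In 3T3 CTCFL this was 5.93% against 7.56%, in P19 CTCF 2.20% against 1.25% and in P19 CTCFL 2.20% against 1.93%. Whether such pairs are 1 enriched stretch split by the peak caller was not tested. At the other end, the widest gap between 3T3 CTCF centres was 77.2 kb, from position 5195799 to 5272965 on chromosome 19, and the same stretch lies in the widest 3T3 CTCFL gap, 155.3 kb long. On chromosome 15 both CTCF lists had their widest gap at the same place, 63.3 kb in 3T3 and 63.8 kb in P19, from about position 76584812 to 76648115.

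The longest run of regions under 1 kb apart was at chr15:76023507-76029643, where 15 peaks of the 4 lists formed 7 regions over 6.14 kb. Of these peaks 6 were 3T3 CTCF, 6 were 3T3 CTCFL, 2 were P19 CTCF and 1 was P19 CTCFL. Its last region, chr15:76028292-76029643, held peaks of all 4 lists, with highest scores of 2649 for 3T3 CTCF, 564.6 for 3T3 CTCFL, 427.1 for P19 CTCF and 99.8 for P19 CTCFL. The score is that of the authors' peak caller, read as −10 times the log10 of its p-value, and is used only to rank peaks within a list. In the first 5 regions of the run no 3T3 CTCF score was above 98.3 and no P19 peak was found.

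On chromosome 10 the longest run, chr10:79610343-79615083, had 12 peaks in 4 regions, led by a 3T3 CTCF peak at 3100. That score is a value shared by 505 peaks of its list, 8 of them in the windows, so it does not rank them. The runs of the other windows were made of weak peaks. At chr19:5725965-5730976 the 8 peaks scored at most 80.9 in any list, and at chr17:56908563-56912464 there were 5 3T3 CTCF peaks of at most 123.8, 2 3T3 CTCFL peaks and none of P19.

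Most CTCFL peaks of the windows lay on CTCF, as did most of the rest. In 3T3, 235 of 375 CTCFL peaks overlapped a CTCF peak by at least 1 bp, 62.7% (57.6 to 67.6), against 59.3% in the rest of the same chromosomes and 61.3% in the whole list. In P19 it was 66 of 95, 69.5% (59.2 to 78.5), against 66.2% in the rest and 67.6% in the whole list. The differences were 3.38 points (−2.00 to 8.59) and 3.26 points (−7.43 to 12.8), both with intervals that include 0. In 3T3 the chromosome 10 window went the other way from the others, with 59.0% against 63.3% in the rest of its chromosome, −4.26 points (−13.1 to 4.39). The 3T3 differences were 9.35 points on chromosome 19, 5.27 on chromosome 15 and 6.29 on chromosome 17, each with an interval that includes 0. Without the chromosome 10 window, the one that went the other way, the pooled 3T3 difference was 7.06 points (0.01 to 13.7). This was the only alternative of the 3T3 difference with an interval that left out 0. With scores of at least 100 the 3T3 difference was −5.16 points (−13.6 to 2.51). The P19 share ran from 64.3% on chromosome 19 to 87.5% on chromosome 17, the latter 7 of 8 peaks.

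Seen from CTCF, a larger share of the window peaks overlapped CTCFL. CTCFL peaks also covered more of the window bases, 2.62% in 3T3 and 1.23% in P19, against 0.302% and 0.169% of the rest. Overlap is more frequent by construction where the partner list is denser. The shares below and the choice of the windows by peak density therefore cannot be told apart. CTCFL was present at 225 of the 766 CTCF peaks in 3T3, 29.4% (26.2 to 32.7), against 22.5% (21.6 to 23.4) in the rest and 21.2% in the whole list, a difference of 6.87 points (3.53 to 10.4). In P19, 65 of 277 had it, 23.5% (18.6 to 28.9), against 13.2% (12.3 to 14.2) in the rest and 12.3% in the whole list, a difference of 10.2 points (5.26 to 15.7). The chromosome 19 window was highest in both lines, at 39.0% in 3T3 and 33.3% in P19, and chromosome 15 was next, at 36.7% and 27.7%. On chromosome 17 the shares were 27.3% against 22.7% in the rest of the chromosome in 3T3, 4.57 points (−3.02 to 13.2), and 18.4% against 14.0% in P19, 4.38 points (−6.47 to 20.4). The 3T3 difference on chromosome 10 was 3.56 points (−1.13 to 8.59), so in 3T3 the interval left out 0 in the windows of chromosomes 19 and 15 and included it in the other two. Of the 1 Mb windows of these chromosomes with at least 10 CTCF peaks, 8 of 216 were above chromosome 19 in 3T3 and 4 of 195 in P19. The chromosome 10 megabases, at 22.3% and 25.8% in 3T3, had 97 and 70 of 216 above them.

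These differences depended on the lists and on the chromosome 10 window. When all lists were limited to 5866 peaks by score, the length of the shortest list, the 3T3 difference was −0.81 points (−9.95 to 8.62) and the P19 difference 6.04 points (−4.22 to 17.2). With scores of at least 100 the P19 difference was 3.60 points (−0.46 to 8.91), and against the other 1 Mb windows among the 248 densest of 2475 (at least 100 peaks each) it was 5.35 points (0.42 to 10.8). Without the chromosome 10 window the 3T3 difference was 11.3 points (6.46 to 16.3).

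The lists were also split into 4 equal groups by score. In the highest group of 3T3 CTCF peaks, 54.5% of window peaks and 43.9% of the others had CTCFL, a difference of 10.5 points (3.25 to 17.7). In the lowest group the shares were 12.95% and 10.8%, a difference of 2.11 points (−2.52 to 7.84). The intervals overlap, so these differences are not set apart. The P19 differences by group were 10.0, −1.27, 8.33 and 8.58 points from the lowest to the highest, the second with only 38 window peaks.

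**Figure D3:**
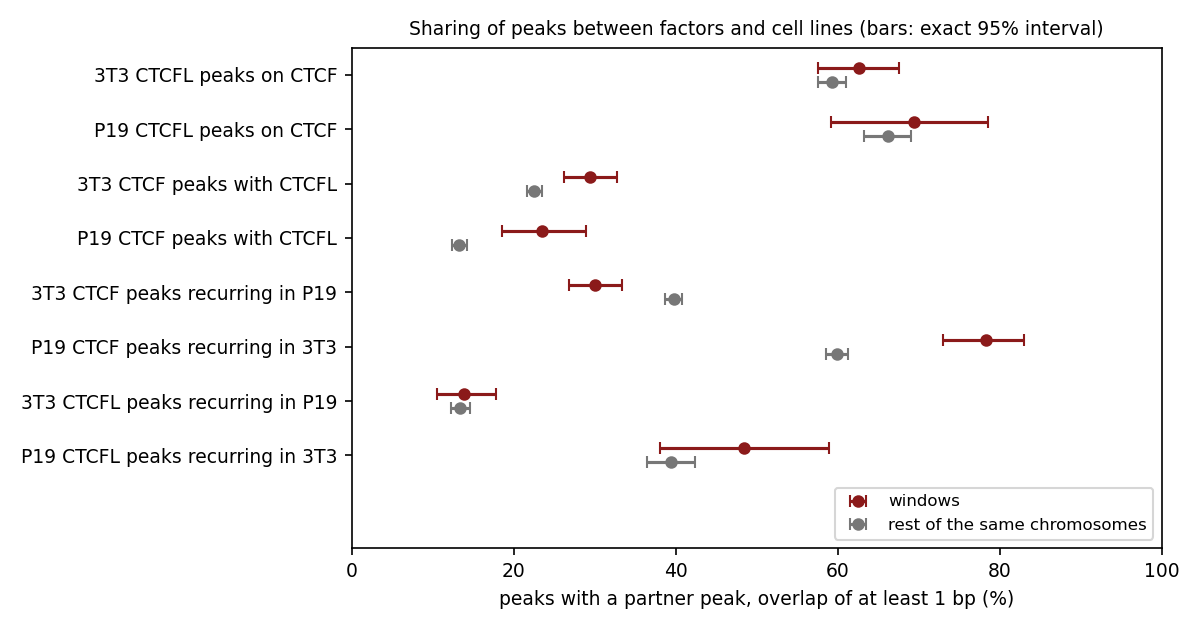
Share of peaks with a partner (%, points) and exact 95% interval (bars) in the windows and in the rest of the same chromosomes, for each list and partner. P19 CTCF peaks recurring in 3T3 stand at 78.3% in the windows and 59.9% in the rest, and 3T3 CTCF peaks recurring in P19 at 30.0% and 39.7%.

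Regions with all 4 lists numbered 28 of 952 merged regions. The leading one by summed score percentile was chr15:76647357-76648953, a 3T3 CTCFL peak of 1835 and a P19 CTCFL peak of 323.2, each the strongest CTCFL peak of any window, with CTCF at 1156 in 3T3 and 266.9 in P19. In both lines its CTCFL score percentile was above that of CTCF, at 99.7 against 94.1 in 3T3 and 98.8 against 87.7 in P19. It stood at the edge of the widest CTCF gap of its window. Chromosome 19 gave 3 of the 6 leading regions: chr19:5487507-5488884 with a P19 CTCFL score of 279.3, chr19:5567279-5569945 with a 3T3 CTCFL score of 1077, and chr19:5053500-5054494. On chromosome 17, chr17:56752431-56753423 had a 3T3 CTCF score of 3100, a 3T3 CTCFL score of 775.2 and P19 scores of 367.1 for CTCF and 90.5 for CTCFL.

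Strong sites were not always strong in both lines. At chr17:56175648-56176688 the P19 CTCFL peak scored 307.5, percentile 98.7 of its list, and P19 CTCF 639.3. The 3T3 CTCFL peak there scored only 73.9, below its list median of 83.7, while 3T3 CTCF scored 1396. At chr10:80391886-80392193 3T3 CTCF scored 3134 and P19 CTCF 57.9, near the lower limit of its list. The P19 CTCFL site with CTCF at chr10:79577196-79577711, with P19 CTCF at 469.9, had a weak 3T3 CTCF peak of 96.3 and no 3T3 CTCFL peak.

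CTCFL without CTCF was found at 140 peaks of the 3T3 list in the windows and 29 of the P19 list. They were weaker than CTCFL peaks on CTCF, with median scores of 67.2 against 100.05 in 3T3 and 65.8 against 80.9 in P19, much as in the rest (67.5 against 99.8, and 65.0 against 84.5). The strongest, chr10:80380387-80381166, scored 496.8 in 3T3 and 152.2 in P19, with no CTCF peak in either line. A further 2 regions had CTCFL in both lines and CTCF in neither, chr19:5637273-5638202 (333.2 in 3T3, 66.7 in P19) and chr15:76498637-76499650 (64.3 and 50). Such regions were 3 of 952 merged regions in the windows, 0.32%, and 21 of 11372 in the rest, 0.18%. The difference was 0.13 points (−0.14 to 0.74). The chromosome 17 window had none. Its strongest 3T3 CTCFL peak without CTCF, chr17:56586444-56586739, scored 116.4 and had no P19 peak. That of P19 was elsewhere, at chr17:56125689-56126283, scored 53.7 and had no 3T3 peak.

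In 3T3 many of these peaks had a CTCF peak close by, and in P19 fewer did. The centre of a 3T3 CTCFL peak without CTCF lay at a median of 1756 bp from the nearest 3T3 CTCF centre (quartiles 895.2 and 4472 bp), against 5528 bp in the rest, and 52.9% had one within 2 kb against 26.2%. In P19 the medians were 7003 and 12026 bp, with 20.7% against 13.4% within 2 kb. Within 1 kb there were 0% of the 29 P19 window peaks and 3.14% of those in the rest. CTCF centres are themselves closer together in the windows, so the shorter distance goes with the choice of the windows. Between the lines, window CTCF peaks were sparser in P19 (55.4 against 153.2 per Mb) and CTCFL peaks wider (median 595 against 289 bp). The part of these in the contrast of 3T3 and P19 was not tested. CTCFL peaks on CTCF were nearly centred on it, with a median offset to the nearest CTCF centre of 70 bp in 3T3 and 68 bp in P19, and 76 and 72 bp in the rest.

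CTCF sites of 3T3 recurred less often, and those of P19 more often, in the windows. Of 766 3T3 CTCF peaks 230 were P19 CTCF peaks, 30.0% (26.8 to 33.4), against 39.7% (38.7 to 40.8) in the rest and 41.7% in the whole list, a difference of −9.72 points (−13.1 to −6.17). Of 277 P19 CTCF peaks 217 were 3T3 CTCF peaks, 78.3% (73.0 to 83.0), against 59.9% (58.6 to 61.3) in the rest and 57.2% in the whole list, a difference of 18.4 points (12.9 to 23.3). All 5 megabases showed both directions, with 3T3 recurrence of 22.7 to 33.1% and P19 recurrence of 76.3 to 80.4%. Such values were also found elsewhere on these chromosomes. Among other 1 Mb windows with at least 10 CTCF peaks, 4 to 44 of 216 were lower than these megabases for 3T3. For P19, 10 to 25 of 195 were higher. Taken window by window, the interval of the difference included 0 for 3T3 on chromosome 19 (−5.71 points, −13.9 to 3.19) and chromosome 15 (−6.96 points, −15.1 to 2.06), and for P19 on chromosome 17 (15.7 points, −1.01 to 28.3). The 3T3 CTCF list was 2.77 times as long as that of P19 in the windows and 1.56 times in the rest, and the windows hold the 5 highest 3T3 CTCF numbers, so the 2 shares and the choice of the windows cannot be told apart.

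On lists of 5866 peaks each, the 3T3 difference turned to 4.21 points (−4.62 to 13.5), and the P19 difference was 20.2 points (9.02 to 31.1). Limiting the lists left 132 3T3 and 91 P19 CTCF peaks in the windows. Set against the other 1 Mb windows among the 248 densest, the differences were −8.23 points (−11.5 to −4.77) and 12.4 points (6.996 to 17.2).

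The lower 3T3 recurrence was found at CTCF peaks without CTCFL. Of those, 166 of 541 recurred in the windows, 30.7%, against 42.9% in the rest, a difference of −12.2 points (−16.3 to −7.98). With CTCFL it was 64 of 225, 28.4%, against 28.8%, a difference of −0.38 points (−6.56 to 6.33). In P19 the same held in the other direction, with 76.4% against 56.5% without CTCFL (19.9 points, 13.5 to 25.7) and 84.6% against 82.6% with it (2.04 points, −9.40 to 10.4). The intervals of the 2 classes do not overlap in either line, but they show counting error alone and the split was chosen after its values were seen. The classes also differed in score. Median scores of window CTCF peaks with and without CTCFL were 233.9 and 87.9 in 3T3, and 232 and 136.8 in P19. The part of score and of the choice of windows in this split was not tested.

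Scores set the recurring 3T3 CTCF peaks apart more sharply in the windows. Their median score was 348.4 against 86.6 for peaks that did not recur, and 189.6 against 84.2 in the rest. In the next to highest group by score 22.7% of window peaks and 44.7% of the others recurred, a difference of −22.0 points (−28.3 to −14.7). In the highest group it was 65.7% against 70.2%, a difference of −4.47 points (−11.6 to 2.20). The highest scoring CTCF peak without CTCFL of each megabase was a CTCF site of the other line as well, for 5 of 5 in each line. High scoring peaks mostly recurred in the rest too. In the highest group of P19 CTCF peaks it was 93.5% in the windows against 84.3%. In 3T3 the sites chr17:56299070-56299567 (3096 in 3T3, 522.6 in P19), chr10:80637795-80638262 (2880 and 473.4) and chr10:79908817-79909425 (2033 and 290.5) were CTCF sites of both lines. In P19 the leading site, chr19:5463463-5464364, scored 644.8 and had 863.4 in 3T3, and chr17:56403382-56403957 scored 607.3 but only 106.8 in 3T3.

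For CTCFL recurrence between the lines, the intervals of both differences include 0. Of 375 3T3 CTCFL peaks 52 were P19 CTCFL peaks, 13.9% (10.5 to 17.8), against 13.4% in the rest and 13.3% in the whole list, a difference of 0.46 points (−3.09 to 4.54). Of 95 P19 CTCFL peaks 46 were 3T3 CTCFL peaks, 48.4% (38.0 to 58.9), against 39.4% in the rest and 35.7% in the whole list, a difference of 9.04 points (−1.78 to 19.9). The chromosome 19 window led in both directions, with 23.5% of its 81 3T3 peaks and 57.1% of its 28 P19 peaks, and chromosome 17 was lowest, with 4 of 58 and 3 of 8.

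**Figure D4:**
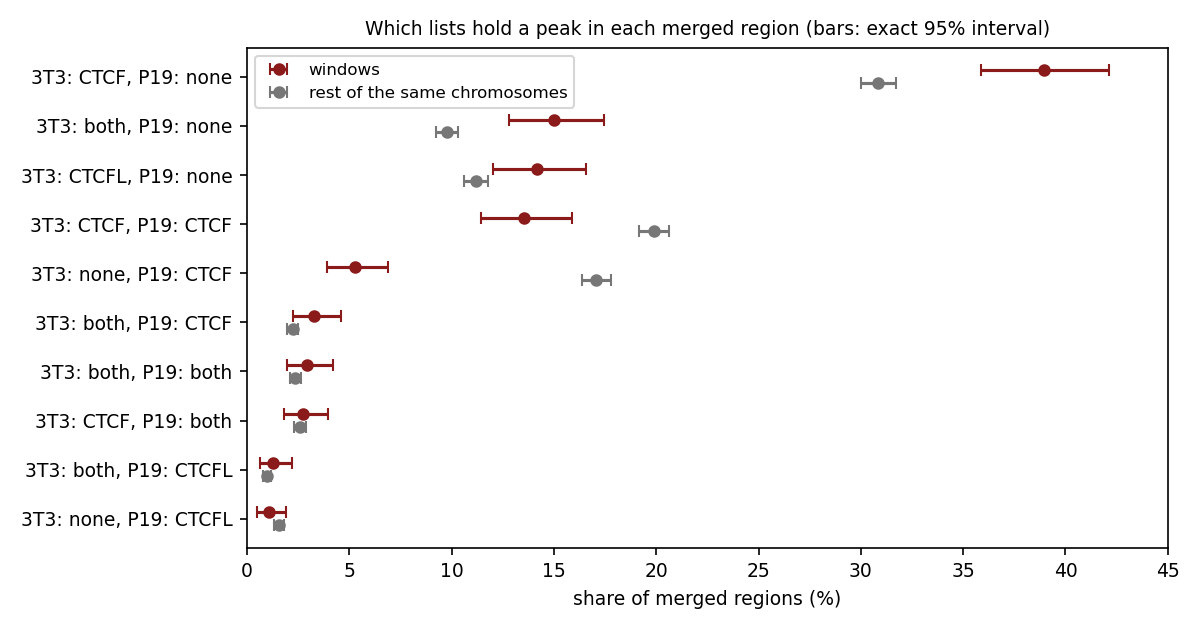
Share of merged regions (%, points) and exact 95% interval (bars) by the lists that hold a peak, in the windows (952 regions) and in the rest of the same chromosomes (11372 regions). CTCF in 3T3 alone stands at 39.0% in the windows and 30.8% in the rest, and CTCF in P19 alone at 5.25% and 17.1%. The windows were chosen above all by 3T3 CTCF numbers.

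When touching peaks of all lists were merged, the windows gave 952 regions, and 3T3 alone made up most of them, as it did in the rest. The windows were chosen above all by 3T3 CTCF numbers, so the shares of 3T3 alone and P19 alone cannot be told apart from the choice. CTCF in 3T3 alone accounted for 371, 39.0% (35.9 to 42.2), against 30.8% in the rest, both factors in 3T3 alone for 143, 15.0% against 9.77%, and CTCFL in 3T3 alone for 135, 14.2% against 11.2%. CTCF in both lines without CTCFL made up 129 regions, 13.6% against 19.9%. CTCF in P19 alone was rarer, at 50 regions, 5.25% (3.92 to 6.87) against 17.1%. Regions of all 4 lists were 2.94% of the windows (1.96 to 4.22) and 2.36% of the rest, a difference of 0.58 points (−0.44 to 1.89). They were 8 of 167 regions on chromosome 19, 8 of 164 on chromosome 15, 9 of 460 on chromosome 10 and 3 of 161 on chromosome 17.

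**Figure D5:**
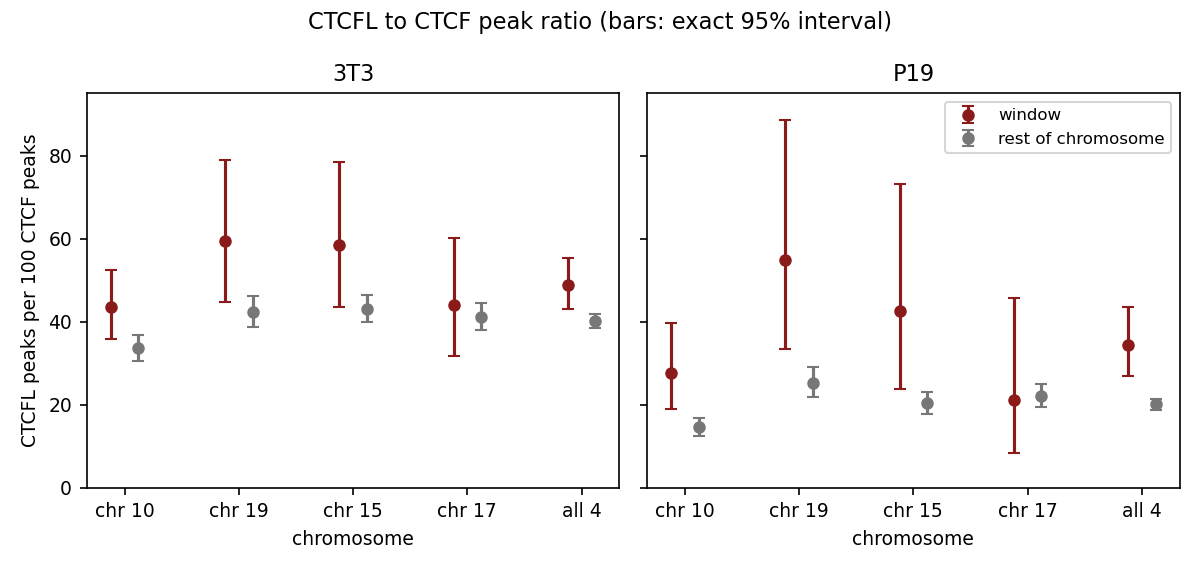
CTCFL peaks per 100 CTCF peaks of the same line (points) with exact 95% intervals (bars), in each window and in the rest of its chromosome, and over all 4. The P19 chromosome 19 window stands at 54.9 against 25.3 in the rest of its chromosome, and the P19 chromosome 17 window, at 21.1, is at the level of the rest, 22.1.

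The windows held more CTCFL peaks for each CTCF peak than the rest of their chromosomes. In 3T3 there were 49.0 CTCFL peaks per 100 CTCF peaks (43.2 to 55.5) against 40.2 (38.6 to 41.9), a ratio of 1.22 (1.07 to 1.39). In P19 there were 34.3 (26.9 to 43.4) against 20.1 (18.8 to 21.5), a ratio of 1.71 (1.32 to 2.18). Peak numbers chose the windows, so these ratios are a description. On lists of equal length they were 0.96 (0.74 to 1.25) and 1.00 (0.73 to 1.37), and with scores of at least 100 that of P19 was 1.505 (0.96 to 2.28).

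The intervals of the 4 windows overlap in this ratio, and differences among them were not tested. Chromosome 19 had 59.6 CTCFL peaks per 100 CTCF peaks in 3T3 and 54.9 in P19, which was 1.41 (1.04 to 1.90) and 2.17 (1.29 to 3.59) times the rest of the chromosome. Chromosome 15 had 58.6 and 42.6, or 1.36 (1.00 to 1.84) and 2.09 (1.15 to 3.66) times. Chromosome 10, the densest, had 43.5 and 27.7, or 1.29 (1.05 to 1.60) and 1.90 (1.26 to 2.82) times. On chromosome 17 the ratios to the rest were 1.07 (0.76 to 1.48) and 0.95 (0.38 to 2.10), and in P19 that value rests on 8 CTCFL peaks.

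A rising ratio with density was seen along the same chromosomes outside the windows. When their other 1 Mb windows were put in 4 groups by the number of CTCF peaks, 3T3 had 26.5, 35.2, 35.9 and 43.0 CTCFL peaks per 100 CTCF peaks from the sparsest to the densest group. P19 had 9.51, 14.3, 17.2 and 23.9. The window value of 3T3, 49.0 (43.2 to 55.5), overlaps the interval of the densest group, 40.9 to 45.2. The window value of P19, 34.3 (26.9 to 43.4), lies above the interval of its densest group, 21.9 to 26.0. By megabase the P19 value ran from 21.1 on chromosome 17 and 24.7 at chr10:80000001-81000000 to 54.9 on chromosome 19. The densest group held 28 to 126 CTCF peaks per 1 Mb in 3T3 and 19 to 55 in P19. The window megabases held 128 to 186 and 38 to 73, so the 2 are not matched for density. Of single 1 Mb windows with at least 10 CTCF peaks, 1 of 195 exceeded the chromosome 19 megabase in P19 and 14 of 216 in 3T3, while 65 and 70 exceeded chr10:80000001-81000000. Against the others of the 248 densest windows the ratios were 1.19 (1.04 to 1.35) in 3T3 and 1.36 (1.06 to 1.73) in P19.

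Peak scores in the windows were close to those elsewhere except for P19 CTCF. Its median score was 155.4 in the windows and 120.8 in the rest, and 22.0% against 10.6% of its peaks were in the highest 10% of the list by score. For 3T3 CTCF the medians were 108.2 and 104.1, with 13.4% and 9.38% in the highest 10%. CTCFL medians were 84.2 and 81.1 in 3T3 and 77.0 and 76.4 in P19, with 9.07% against 9.51% and 10.5% against 11.7% in the highest 10%. P19 CTCF peaks were also somewhat wider, with a median width of 692 bp against 649 bp in the rest. The 3T3 CTCF median was 364 bp against 344 bp. Widths of CTCFL peaks differed little, at 289 against 285 bp in 3T3 and 595 against 600.5 bp in P19. The lists hold no read numbers, and the depth behind each peak is unknown.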

How the data were processed

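Each of the 4 samples analysed has 1 deposited peak list. Per the submitters' processing notes, MACS 1.4, Bowtie, SAMtools and FastQC were used, and mm9 and hg19 are the builds listed. The sources used here do not give the role of each, the control library, the settings or the depth. The last column of each deposited list is the score of the authors' peak caller, read here as −10 times the log10 of its p-value. The build was taken as mm9. The only reference tables were of GRCm38.p6, so peaks have no gene names here, and sequences were not read.

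The windows, members and lists were chosen with earlier results of these data known. A peak belongs to a window by its centre, and the rest is all other peaks of the same 4 chromosomes. Peaks were shared if they overlapped by at least 1 bp. Shares have exact 95% intervals, differences have intervals combined from these, and ratios have exact conditional intervals. Merged regions join touching peaks of the 4 lists, and runs join regions under 1 kb apart.

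Named sites followed a rule. Per megabase and line they are the highest scoring CTCFL peak with CTCF, the highest without and the highest scoring CTCF peak without CTCFL. To these come the 6 leading regions of all 4 lists, CTCFL of both lines without CTCF, the longest run per window and the fullest 100 kb bins. The text gives most of them. The bins singled out for unequal factors, the sparsest bins, the widest gaps and the splits of recurrence by CTCFL and by score were chosen after their values were seen.

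Overlaps were counted in Python 3.11.15 with pandas 2.3.3 and numpy 2.4.6, intervals came from SciPy 1.17.1 and plots from matplotlib 3.10.9. The overlap counts were checked with bedtools 2.31.1, which gave the same number in 16 of 16 cases, and 3 of 3 shares planted among 5000 simulated peaks were recovered.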

Additional observations from a re-analysis of the deposited data

Results flagged for a closer look

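Of 5 contrasts of windows and rest computed in both cell lines, 1 had opposite signs in the lines. Recurrence of CTCF peaks in the other line differed by −9.72 points in 3T3 and by 18.4 points in P19. Both shares count the same overlaps, from 230 3T3 and 217 P19 peaks in the windows and from 3198 and 3090 in the rest. Each is divided by the length of its own list. The 3T3 CTCF list was 2.77 times as long as that of P19 in the windows and 1.56 times in the rest. The 2 signs are therefore not separate results about the lines, and with 1 library a line no contrast between 3T3 and P19 was tested. The windows hold the 5 megabases with most 3T3 CTCF peaks. A choice made on 3T3 density thus moves with both differences, and its part in them was not tested.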

How the results depend on the processing

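No paired analysis was possible because there was 1 library a group, and for the same reason no replicate could be left out. Over 14 results and 14 alternatives, 129 of 142 values lay inside the reported value's interval, 10 lay outside it, and 3 turned a direction whose interval had left out no difference. In all, 12 of 114 values with a direction changed it, 9 of them for shares whose reported interval already included 0 (CTCFL on CTCF in both lines and 3T3 CTCFL recurrence). On lists of equal length the reversed values were −0.81 points for 3T3 CTCF peaks with CTCFL, 4.21 points for 3T3 CTCF recurrence and 0.96 for the 3T3 ratio of CTCFL to CTCF, and the P19 ratio moved to 1.00. With scores of at least 100, 3T3 CTCFL on CTCF was −5.16 points, P19 CTCF with CTCFL 3.60 points, 3T3 CTCFL recurrence −3.45 points, and the scaled spacing 0.70 for 3T3 CTCFL and 0.84 for P19 CTCFL. P19 CTCF recurrence was 12.4 points both with centres within 200 bp and against the other windows among the 248 densest. Without the chromosome 10 window, 3T3 CTCF with CTCFL was 11.3 points and the scaled 3T3 CTCF spacing 0.57. Why these values shifted, the cause, was not tested. A score limit or an equal length leaves out weak peaks by construction. P19 CTCFL had 95 peaks in the windows and 29 at a score of at least 100, which limits the precision of values that use it.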

Other observations

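The density fell sharply at some window borders and not at others. The megabases before and after the chromosome 10 window held 14 and 26 3T3 CTCF peaks, against 184 and 186 inside, and 0 and 2 P19 CTCFL peaks. The megabase before the chromosome 17 window held 3 3T3 CTCF peaks and 0 3T3 CTCFL peaks, and the one after it 38 and 14. On chromosome 19 the neighbours stayed dense, with 98 and 105 3T3 CTCF peaks and 16 and 16 P19 CTCFL peaks. On chromosome 15 they held 62 and 54 3T3 CTCF peaks and 31 and 21 of 3T3 CTCFL.

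Scores of overlapping CTCFL and CTCF peaks in the windows had a Spearman's rho of 0.41 over 235 3T3 pairs and 0.08 over 66 P19 pairs, against 0.47 and 0.17 in the rest. These are across peaks of 2 libraries each, and are a description.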
